A study of Mus musculus with 11 samples.

Results

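Open chromatin was followed across the loci of 5 long genes of the synapse and of neuronal cell adhesion: Ptprd, Nrxn3, Nxph1, Cntn6 and Dpp10. These genes were chosen because earlier results of the same data had shown differences at their loci, so their values are given as a description and carry no p-value. A locus is the set of regions whose midpoint lies nearest to the gene body of that protein-coding gene, within 100 kb. The 5 loci held 125 of 124941 regions, 42 at Ptprd, 46 at Nrxn3, 8 at Nxph1, 8 at Cntn6 and 21 at Dpp10, and 108 of the 125 lay inside the gene body. The farthest region counted as a member lay 89677 bp from the Nrxn3 gene body, and the nearest one left out lay 102260 bp from Nxph1.

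ATAC-seq, in which a transposase inserts adapters into accessible DNA, was run on sorted cells of the mouse esophagus, and each library yielded a list of intervals called open. In the SmoM2-Sox9cKO group (Krt5-SmoM2-Sox9fl/fl, 3 libraries, cells with high EpCAM, no strain given) an activated form of the Hedgehog receptor component Smoothened, under a Krt5 label, was combined with floxed alleles of the transcription factor gene Sox9. The SmoM2 group (Krt5-SmoM2, 3 libraries, CD1 strain, high EpCAM) carried activated Smoothened with Sox9 intact as far as the labels say. The WT group (wild type, 3 libraries, CD1 strain) was sorted for low EpCAM, an adhesion protein of epithelial cells, so genotype and sorting gate cannot be told apart in any comparison with WT. The Embryo group (Krt8YFP, embryonic day 13, 2 libraries, no strain given) was sorted on YFP. Krt5 marks the basal layer of stratified epithelia and Krt8 marks simple epithelia. The labels give no age for the first 3 groups and do not say how Sox9 was recombined. Nothing says that the replicates are separate animals or sorts, and a p-value here reflects no more than the spread of these libraries, which may be technical.

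Neurexins, among them Nrxn3, are presynaptic receptors that bind many partners across the synaptic cleft, and Nxph1 encodes neurexophilin, a secreted glycoprotein that binds alpha-neurexins. Ptprd encodes a receptor tyrosine phosphatase of the LAR family, which organises synapses through adhesion partners on the facing cell. Cntn6 encodes a GPI-anchored contactin of neurons, and Dpp10 encodes a dipeptidyl peptidase-like protein without peptidase activity that serves as an auxiliary subunit of Kv4 potassium channels. All are best known from neurons. Long genes of this kind have large introns that can hold many distant regulatory elements, and an open region inside a gene body need not act on that gene.

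The promoters are shown first because the loci differed in whether an open region lay at the listed start. RefSeq sequences (GRCm38.p6, from 250 bases before to 50 after a start) matched 4 of the 5 genes, and Ptprd had no entry. Nrxn3 had 3 windows, of which the only one overlapped by a region is printed with the single windows of Dpp10, Nxph1 and Cntn6. Each sequence is given on the strand of its gene, with every CG dinucleotide in capitals, since CpG-rich promoters form a class of their own in mammals.
Nrxn3, chr12:89812233-89812532, plus strand, a start inside the gene: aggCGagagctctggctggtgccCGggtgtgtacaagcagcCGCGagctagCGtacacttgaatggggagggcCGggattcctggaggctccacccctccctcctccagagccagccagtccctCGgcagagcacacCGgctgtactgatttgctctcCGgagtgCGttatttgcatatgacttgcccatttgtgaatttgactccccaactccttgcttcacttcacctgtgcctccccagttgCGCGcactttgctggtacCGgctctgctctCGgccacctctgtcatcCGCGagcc
Dpp10, chr1:124045510-124045809, minus strand: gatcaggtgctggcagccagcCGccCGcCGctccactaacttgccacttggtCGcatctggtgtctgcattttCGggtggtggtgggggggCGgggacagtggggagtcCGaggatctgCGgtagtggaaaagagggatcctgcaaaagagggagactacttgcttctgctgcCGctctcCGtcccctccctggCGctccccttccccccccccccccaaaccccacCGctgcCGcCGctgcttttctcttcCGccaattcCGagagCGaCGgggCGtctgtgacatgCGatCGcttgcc
Nxph1, chr6:8949769-8950068, plus strand: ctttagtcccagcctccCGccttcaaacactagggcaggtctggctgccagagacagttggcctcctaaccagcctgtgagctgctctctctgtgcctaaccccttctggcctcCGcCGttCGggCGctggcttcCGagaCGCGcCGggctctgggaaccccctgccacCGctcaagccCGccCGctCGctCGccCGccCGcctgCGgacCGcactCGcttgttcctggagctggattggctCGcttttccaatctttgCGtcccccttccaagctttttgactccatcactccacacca
Cntn6, chr6:104492794-104493093, plus strand: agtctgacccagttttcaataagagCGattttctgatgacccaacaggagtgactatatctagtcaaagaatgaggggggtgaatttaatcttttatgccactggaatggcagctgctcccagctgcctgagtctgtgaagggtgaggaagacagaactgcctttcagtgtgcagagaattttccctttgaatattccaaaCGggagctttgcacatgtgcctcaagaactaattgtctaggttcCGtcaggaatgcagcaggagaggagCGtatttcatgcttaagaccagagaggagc
Dpp10 and Nxph1 each had 21 CG dinucleotides, the printed Nrxn3 window had 16 and Cntn6 had 4, against a median of 7 over the 32619 promoters of the table. The other Nrxn3 windows, chr12:88794254-88794553 and chr12:88953140-88953439, had 2 and 6 CG dinucleotides and were overlapped in none of the 11 libraries, with the nearest region 76824 and 29202 bp away. The second of them held 1 match to TGANTCA, a motif of AP-1. The printed Nrxn3 window was overlapped by a region in 3 of 3 SmoM2-Sox9cKO, 3 of 3 SmoM2, 2 of 3 WT and 2 of 2 Embryo libraries. The Dpp10 window was overlapped in 1 of 3 SmoM2-Sox9cKO, 2 of 3 SmoM2, 0 of 3 WT and 1 of 2 Embryo libraries. The Nxph1 and Cntn6 windows were overlapped in none of the 11 libraries, although the Nxph1 window was as rich in CG as that of Dpp10. The nearest region lay 861 bp away for Nxph1 and 53159 bp away for Cntn6. Of all promoters in the table, 46.0% were overlapped in every SmoM2-Sox9cKO library, 45.6% in every SmoM2 library, 45.2% in every WT library and 29.5% in both Embryo libraries. In the 4 printed windows none of TGGGTGGTC (a GLI motif, in 0.3% of all promoters), ACAATG and AACAAT (SOX motifs, 12.2% and 10.6%, which overlap by shared letters) or TGANTCA (AP-1, 7.8%) was found on either strand. CANNTG, the E-box, reads the same on both strands and was found 5 times in the Nrxn3 window, 3 times at Dpp10, 1 time at Nxph1 and 4 times at Cntn6, and 72.3% of all promoters hold it.

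In SmoM2 cells far more regions were open than in WT cells at Ptprd, Nrxn3, Nxph1 and Dpp10, and fewer at Cntn6. In SmoM2-Sox9cKO cells the loci parted. The count at Ptprd stayed near that of SmoM2, Nrxn3 and Dpp10 lay between SmoM2 and WT, and Nxph1 was at 0. The count at Cntn6 was near that of WT, though it came from partly different regions. A region is called occupied in a library where an interval overlaps it, and gained where every SmoM2 library and no WT library held it. Of the 125 regions 44 were gained, against 6.91% of all regions, and 3 were lost (held by no SmoM2 library and every WT library), against 3.11%. Since these loci were chosen from this contrast, nothing is read from those counts. In bulk samples, fewer cells of a type and less openness per cell cannot be told apart.

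**Figure D1:**
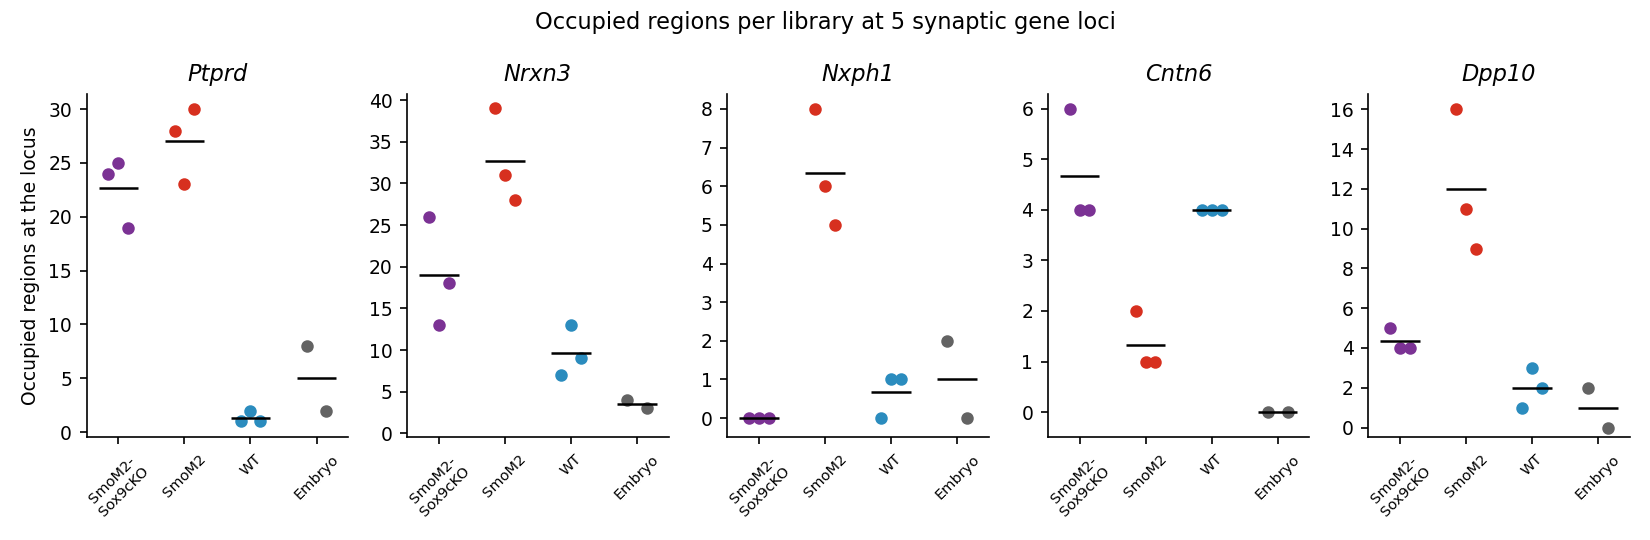
Number of occupied regions at each of the 5 loci (vertical axes) in each library (points) by group, with bars at group means. Ptprd stood at 19 to 25 in SmoM2-Sox9cKO and 23 to 30 in SmoM2, against 1 or 2 in WT, while Nxph1 was at 0 in all 3 SmoM2-Sox9cKO libraries.

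Ptprd (chromosome 4, 75941237 to 78211742) is the second longest gene body of the annotation, at 2270.5 kb. It held 24, 25 and 19 occupied regions in SmoM2-Sox9cKO libraries, 28, 23 and 30 in SmoM2, 1, 2 and 1 in WT, and 8 and 2 in Embryo. Every library of both SmoM2 genotypes was above every WT library, and the SmoM2-Sox9cKO and SmoM2 ranges overlapped. The covered length averaged 12.97 ± 1.56 kb in SmoM2-Sox9cKO and 16.3 ± 2.64 kb in SmoM2, against 1.38 ± 0.406 kb in WT (SD, n = 3 each). On the log2 scale of regions scaled by the library total, the difference was 3.82 (SE 0.18) for SmoM2 against WT, 3.63 (SE 0.18) for SmoM2-Sox9cKO against WT and -0.19 (SE 0.18) for SmoM2-Sox9cKO against SmoM2.

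The open regions of Ptprd were packed at 1 end of the gene. All 19 gained regions lay from -56.8 to 523.6 kb relative to the lower gene end, and 18 of them were inside the gene body. From 76465130 to 78211463, 1746.3 kb or 76.9% of the gene, no region of the locus was occupied in any of the 9 non-embryonic libraries. Embryo replicate 1 held some there. Regions assigned to another gene body were not looked at for such stretches. At the upper end, the region at chr4:78211464-78212226 was occupied in 3 of 3 SmoM2-Sox9cKO, 3 of 3 SmoM2, 1 of 3 WT and 1 of 2 Embryo libraries. The gained region that ranked best within the SmoM2 lists, chr4:76424188-76425483, stood in the top 15.1% of SmoM2 intervals by the authors' -log10 p (median over libraries) and was occupied in 3 of 3 SmoM2-Sox9cKO libraries too. So was the next, chr4:75994252-75995164. One region, chr4:76448698-76451165, was occupied in all 9 non-embryonic libraries and in 1 Embryo library. Of the 8 Ptprd regions seen in Embryo, 4 were in no other group, among them chr4:75924282-75926236 in both Embryo libraries.

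**Figure D2:**
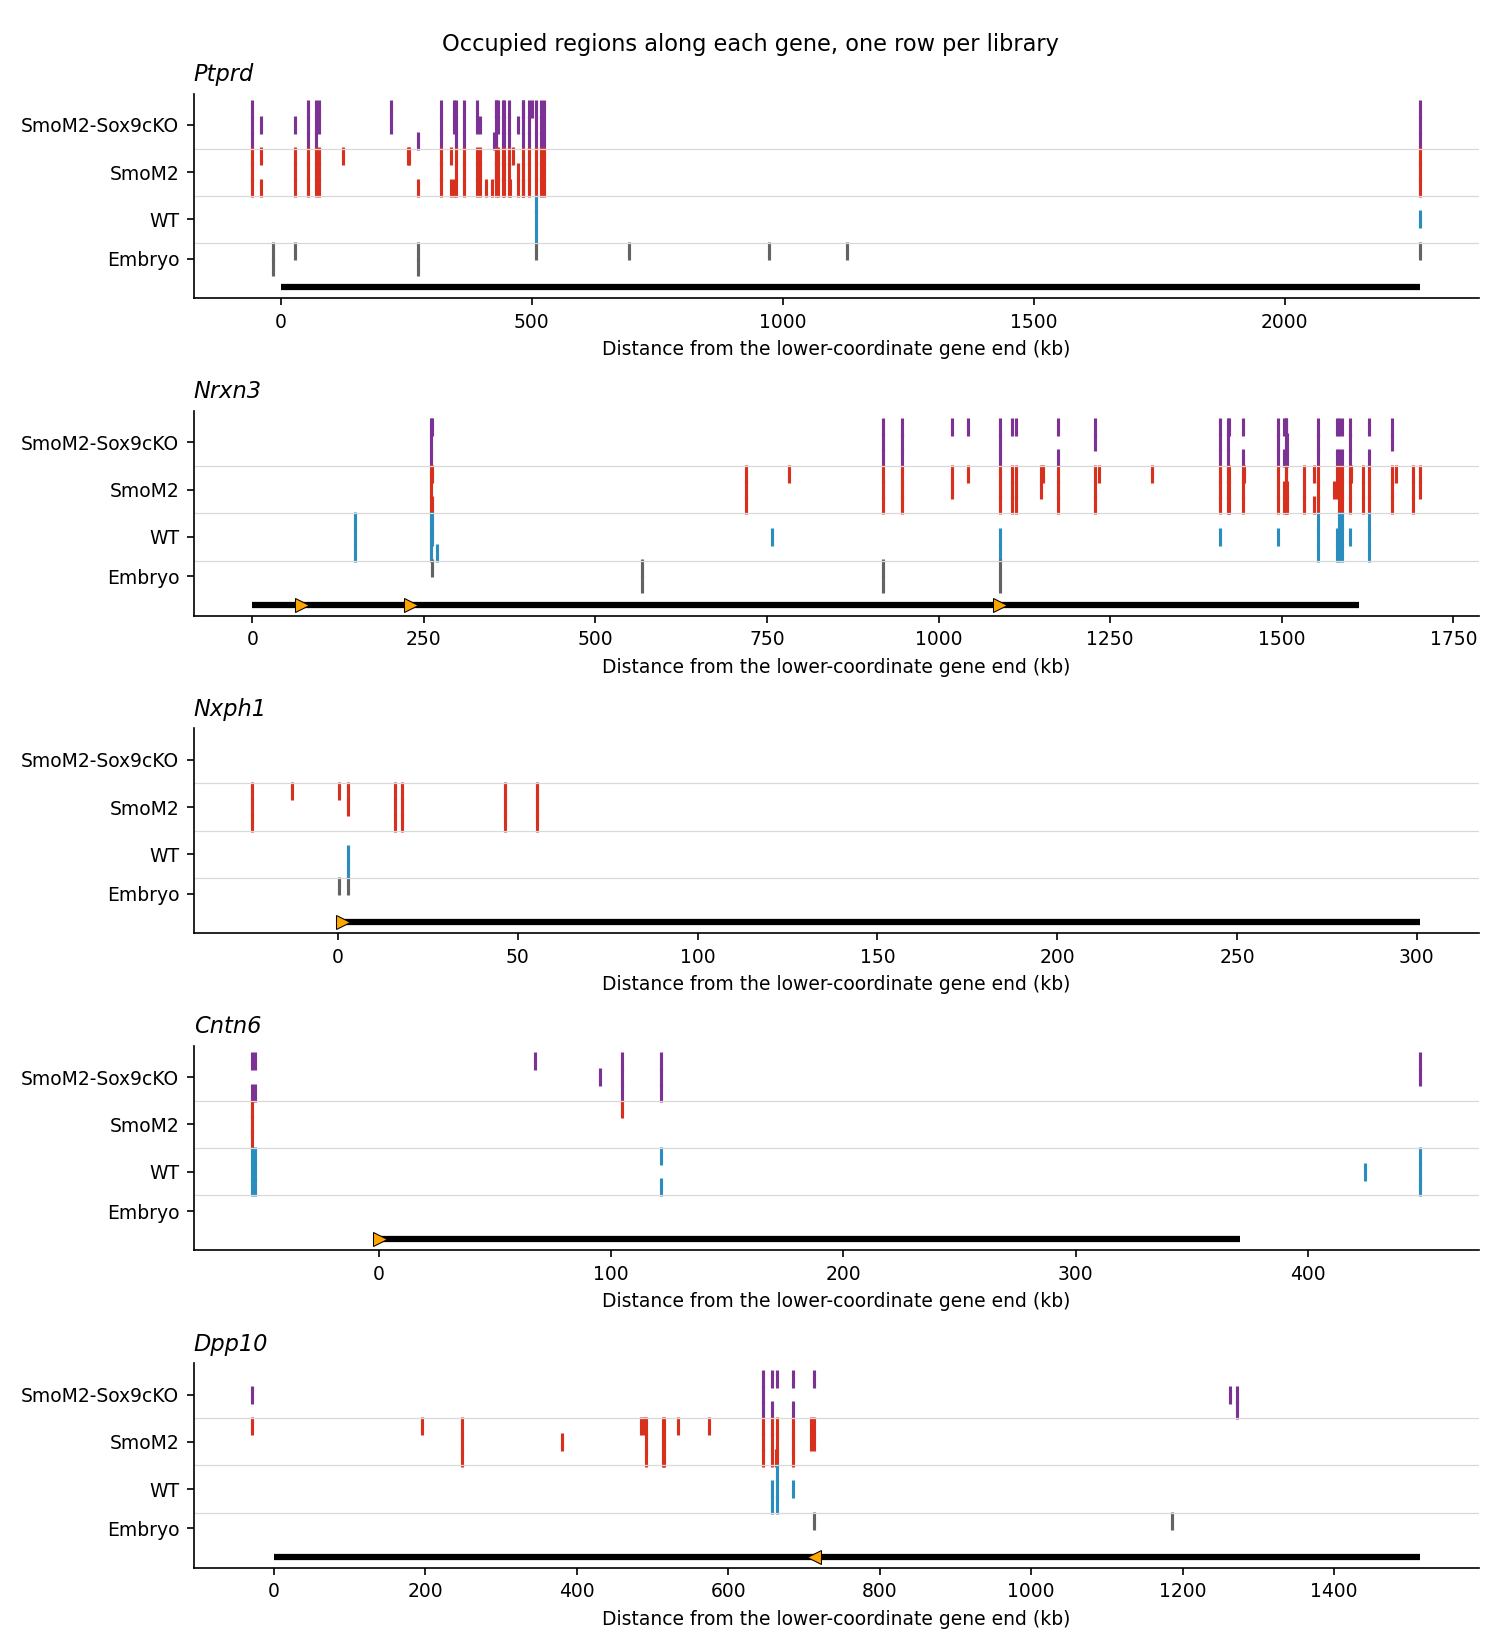
Regions along each locus, with distance from the lower gene end in kb on the horizontal axis, a row for each library within its group, a mark for each occupied region, the gene body as a black bar and RefSeq starts as arrowheads. The gained regions of Ptprd fall within 580.4 kb at 1 end, and those of Nrxn3 spread over 970.8 kb. Of these 15, 12 lie beyond the start at 1089.8 kb, as do 33 of all 46 Nrxn3 regions.

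Nrxn3 (chromosome 12, 88722701 to 90334935, plus strand, 1612.2 kb) held 26, 13 and 18 occupied regions in SmoM2-Sox9cKO, 39, 31 and 28 in SmoM2, 7, 13 and 9 in WT, and 4 and 3 in Embryo. SmoM2 lay above both other groups in every library, and 1 SmoM2-Sox9cKO library equalled the highest WT library. The covered length averaged 10.5 ± 4.57 kb in SmoM2-Sox9cKO and 18.4 ± 3.50 kb in SmoM2, against 5.22 ± 2.86 kb in WT (SD, n = 3 each). The log2 difference was 1.61 (SE 0.25) for SmoM2 against WT, -0.75 (SE 0.25) for SmoM2-Sox9cKO against SmoM2 and 0.87 (SE 0.25) for SmoM2-Sox9cKO against WT.

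Neurexin genes have a start for the long alpha form and an internal start for the shorter beta form. All Nrxn3 windows lie inside the listed gene body, and the sequences do not say which form each one serves. The printed window lies at a start 1089.8 kb into the gene, called the internal start here. The region over it, chr12:89811770-89813050, ranked in the top 10.8% of SmoM2-Sox9cKO intervals, the top 6.07% in SmoM2, the top 53.5% in WT and the top 10.3% in Embryo (medians within lists of different length). Of the 15 gained regions 12 lay beyond this start and 3 before it. The best ranked, chr12:89641271-89642180, was occupied in 3 of 3 SmoM2-Sox9cKO, 3 of 3 SmoM2, 0 of 3 WT and 2 of 2 Embryo libraries, and chr12:90228628-90229768 in 3 of 3, 3 of 3, 0 of 3 and 0 of 2. In the other direction, chr12:88871377-88872196 was occupied in 3 of 3 WT libraries and in no library of another group. The longest stretch with no region of the locus occupied in a non-embryonic library was 450.0 kb, in the part before the internal start.

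Nxph1 (chromosome 6, 8948614 to 9249619, plus strand, 301.0 kb) was listed at 0 in all 3 SmoM2-Sox9cKO libraries, at 8, 6 and 5 occupied regions in SmoM2, at 0, 1 and 1 in WT and at 2 and 0 in Embryo. SmoM2 did not overlap any other group, and no log2 difference is given against a group at 0. For SmoM2 against WT it was 2.57 (SE 0.36). All 5 gained regions, from -23.9 to 55.4 kb relative to the lower gene end, were thus absent from every SmoM2-Sox9cKO library. Their ranks in the SmoM2 lists ran over the top 48.9% to 84.3%, against the top 15.1% to 81.8% for the gained Ptprd regions. The ranges overlapped, but the best at Nxph1 ranked lower than the best at Ptprd. The best at Nxph1, chr6:8924418-8924977, ranked in the top 48.9% of SmoM2 intervals and chr6:9003649-9004342 in the top 57.0%. Around the start, chr6:8948569-8948908 was occupied in 0 of 3 SmoM2-Sox9cKO, 1 of 3 SmoM2, 0 of 3 WT and 1 of 2 Embryo libraries, and chr6:8951198-8951695 in 0 of 3, 2 of 3, 2 of 3 and 1 of 2.

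Cntn6 (chromosome 6, 104492662 to 104863406, plus strand, 370.7 kb) went the other way, with 6, 4 and 4 occupied regions in SmoM2-Sox9cKO, 2, 1 and 1 in SmoM2, 4, 4 and 4 in WT and none in Embryo. SmoM2 lay below both other groups in every library. The log2 difference was -1.46 (SE 0.23) for SmoM2 against WT, 1.58 (SE 0.23) for SmoM2-Sox9cKO against SmoM2 and 0.12 (SE 0.23) for SmoM2-Sox9cKO against WT. With 8 regions in all, single regions set these values. Both regions lost in SmoM2 against WT lay outside the gene body, 53278 and 77507 bp away. With gene bodies only, the log2 difference for SmoM2 against WT was -0.65, and SmoM2 no longer lay below WT in every library. No interval lay at the start of Cntn6. The longest stretch with no region of the locus occupied in a non-embryonic library, 302.4 kb, equalled 81.6% of the gene length. It ran past the far end of the gene. Below the gene, neighbouring regions differed: chr6:104437698-104438621 was occupied in 2 of 3 SmoM2-Sox9cKO, 3 of 3 SmoM2 and 3 of 3 WT libraries, while its neighbour chr6:104439134-104439635 was occupied in 2 of 3, 0 of 3 and 3 of 3. Inside the gene, chr6:104597166-104597715 was occupied in 3 of 3 SmoM2-Sox9cKO, 1 of 3 SmoM2 and 0 of 3 WT libraries. Also inside it, chr6:104613753-104614395 was occupied in 3 of 3, 0 of 3 and 2 of 3. Beyond its far end, chr6:104940136-104941690 was occupied in 2 of 3, 0 of 3 and 3 of 3. The similar counts of SmoM2-Sox9cKO and WT thus came from partly different regions.

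Dpp10 (chromosome 1, 123332138 to 124845815, minus strand, 1513.7 kb) held 5, 4 and 4 occupied regions in SmoM2-Sox9cKO, 16, 11 and 9 in SmoM2, 1, 3 and 2 in WT, and 2 and 0 in Embryo. The 3 groups did not overlap. The log2 difference was 2.24 (SE 0.29) for SmoM2 against WT, -1.28 (SE 0.29) for SmoM2-Sox9cKO against SmoM2 and 0.97 (SE 0.29) for SmoM2-Sox9cKO against WT. The printed start lies inside the gene, 713.4 kb from its lower end, and 18 of the 21 regions of the locus lay downstream of it. So did all 5 gained regions. Only chr1:123977942-123979078 among them was occupied in SmoM2-Sox9cKO, in 3 of 3 libraries, and it was also the best ranked in SmoM2 (top 16.6%). The next, chr1:123846758-123847344, was occupied in 3 of 3 SmoM2 libraries and in no library of another group. Some regions were also held by WT. The region at chr1:123995961-123997104 was occupied in 1 of 3 SmoM2-Sox9cKO, 3 of 3 SmoM2 and 3 of 3 WT libraries. It ranked in the top 29.4% in SmoM2 and the top 79.9% in WT (medians). The region at chr1:123989767-123990720 was occupied in 2 of 3, 3 of 3 and 2 of 3.

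Set side by side, the gained regions differed in what was seen of them in SmoM2-Sox9cKO. Of the 44, 19 (43.2%) were occupied in 3 of 3 SmoM2-Sox9cKO libraries and 13 (29.5%) in none, against 44.9% and 13.4% of the 8637 gained regions of the whole genome. At Ptprd 14 of 19 were occupied in all 3 SmoM2-Sox9cKO libraries and 0 in none. At Nrxn3 4 of 15 were in all 3 and 4 in none, at Dpp10 1 of 5 and 4, and at Nxph1 0 of 5 and 5. By median rank in the SmoM2 lists, the gained Nrxn3 regions in none stood at the top 63.5% to 80.3%. Those in all 3 stood at the top 10.2% to 55.0%. At Dpp10 the values were 39.2% to 75.9% for those in none and 16.6% for the 1 in all 3. At Ptprd those in all 3 ran from 15.1% to 78.8%. The part of rank in these counts was not tested. Over all regions of the 5 loci, 13 were occupied in 0 of 3 SmoM2-Sox9cKO and 3 of 3 SmoM2 libraries, against 1.34% of all regions, and 1, at Cntn6, in 3 of 3 SmoM2-Sox9cKO and 0 of 3 SmoM2, against 0.678%. Against WT, 20 were occupied in 3 of 3 SmoM2-Sox9cKO and 0 of 3 WT libraries, against 4.26%, and 1 in the reverse, against 2.69%. These counts are not separate results. The 13 are the same 13 gained regions given above, and the 20 are the 19 gained regions given above and 1 at Cntn6. The comparisons share libraries, and the loci were chosen with them known.

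**Figure D3:**
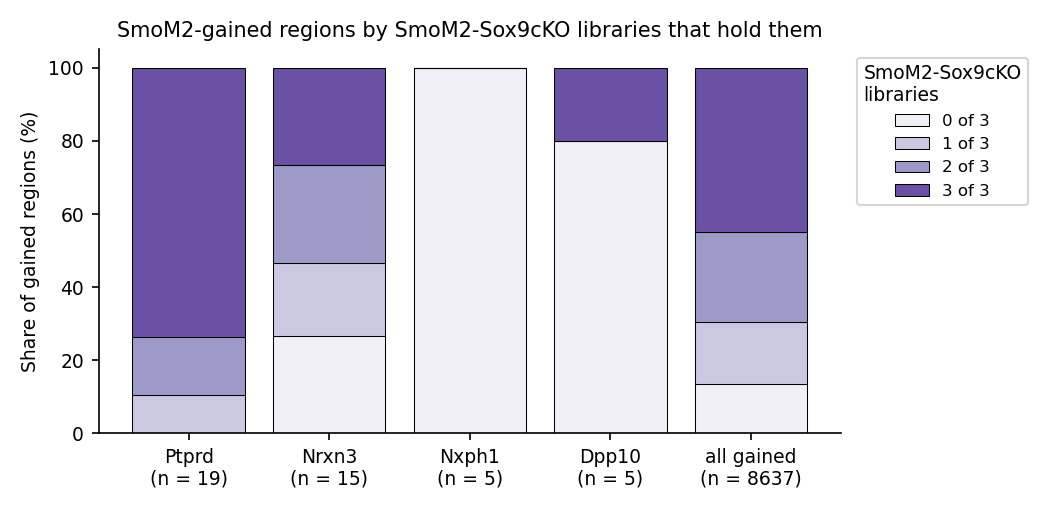
Share of the gained regions of each locus in percent (vertical axis), split by how many SmoM2-Sox9cKO libraries, from 0 to 3, held them, with all 8637 gained regions as the last bar. Cntn6 had none and is not drawn. Ptprd had 14 of 19 in all 3 libraries and Nxph1 had 5 of 5 in none.

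Of the 44 gained regions 2 (4.5%), 1 at Ptprd and 1 at Nrxn3, were occupied in an Embryo library, near the 4.78% of all gained regions. Of the 125 regions 16 (12.8%) were occupied in an Embryo library, against 21.0% of all regions, and the Embryo lists are far shorter than the others. Agreement between libraries of a group is given as a description, since loci chosen for differences between groups hold few regions that are open everywhere. Of the member regions seen in any SmoM2-Sox9cKO library 40.3% were in all 3, against 64.1% of all regions, and the shares were 56.2% against 66.2% for SmoM2 and 44.0% against 66.5% for WT. Only 3 (2.4%) were occupied in all 9 non-embryonic libraries, against 35.6% of all regions, and 35 (28.0%) were in 1 library alone, against 19.2%. Of the 44 gained regions 39 (88.6%) lay in a gene body, close to the 86.4% of all 125 regions at these very long genes.

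Long genes offer more room for regions. Among the 557 genes of 300 kb or more, the median number of gained regions was 1 and 38.2% had none. Ptprd with 19 stood second after Kcnma1, a calcium-activated potassium channel gene, with 20, followed by Clstn2 with 18, Ctnna2 with 16 and Nrxn3 with 15. Nxph1 and Dpp10, with 5 each, shared rank 93 with 27 others, and Cntn6 had 0. The loci with the most similar course over the 9 non-embryonic libraries were looked for among 4069 loci with a mean of at least 5 regions, by Pearson's r, which here mainly follows the 3 groups. For Ptprd they were Pde1a and Tmem26 (r = 0.993 each) and Wdr72 (0.992). For Nrxn3 they were Sema3e and Ptprk (0.967 each) and Dpp10 (0.961). For Dpp10 they were S1pr1 (0.98), Sema3e and Ptprk (0.961 each). For Nxph1 they were Hmgcll1 (0.931) and Tank (0.899), and for Cntn6 Prdm11 (0.946), Plekhm1 (0.937) and Vwa3b (0.936). Within the 5, Nrxn3 and Dpp10 ran most alike (r = 0.96) and Nxph1 and Cntn6 most opposite (r = -0.88), while Ptprd and Nxph1 had r = 0.26.

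The partners of these genes were compared next, over 90 other genes of synaptic adhesion in 5 lists, of which 68 had a mean of at least 1 occupied region and were tested with limma. For SmoM2 against WT, 11 of 68 were higher, 4 were lower and 53 did not pass, against 5.2% and 5.75% of the 15365 loci tested over the genome. Gene length went with this: of 23 tested list genes of 300 kb or more 9 were higher, and of 45 shorter ones 2, while over the genome 23.9% of loci of 300 kb or more and 4.58% of shorter ones were higher. Lower in SmoM2 were 2 of the 23 long list genes and 2 of the 45 shorter ones. Over the genome 11.9% of loci of 300 kb or more and 5.55% of shorter ones were lower, so long loci were called more often in both directions. The part of gene length in these counts was not tested. The median log2 change of the list was -0.12, the same as that of all loci.

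**Figure D4:**
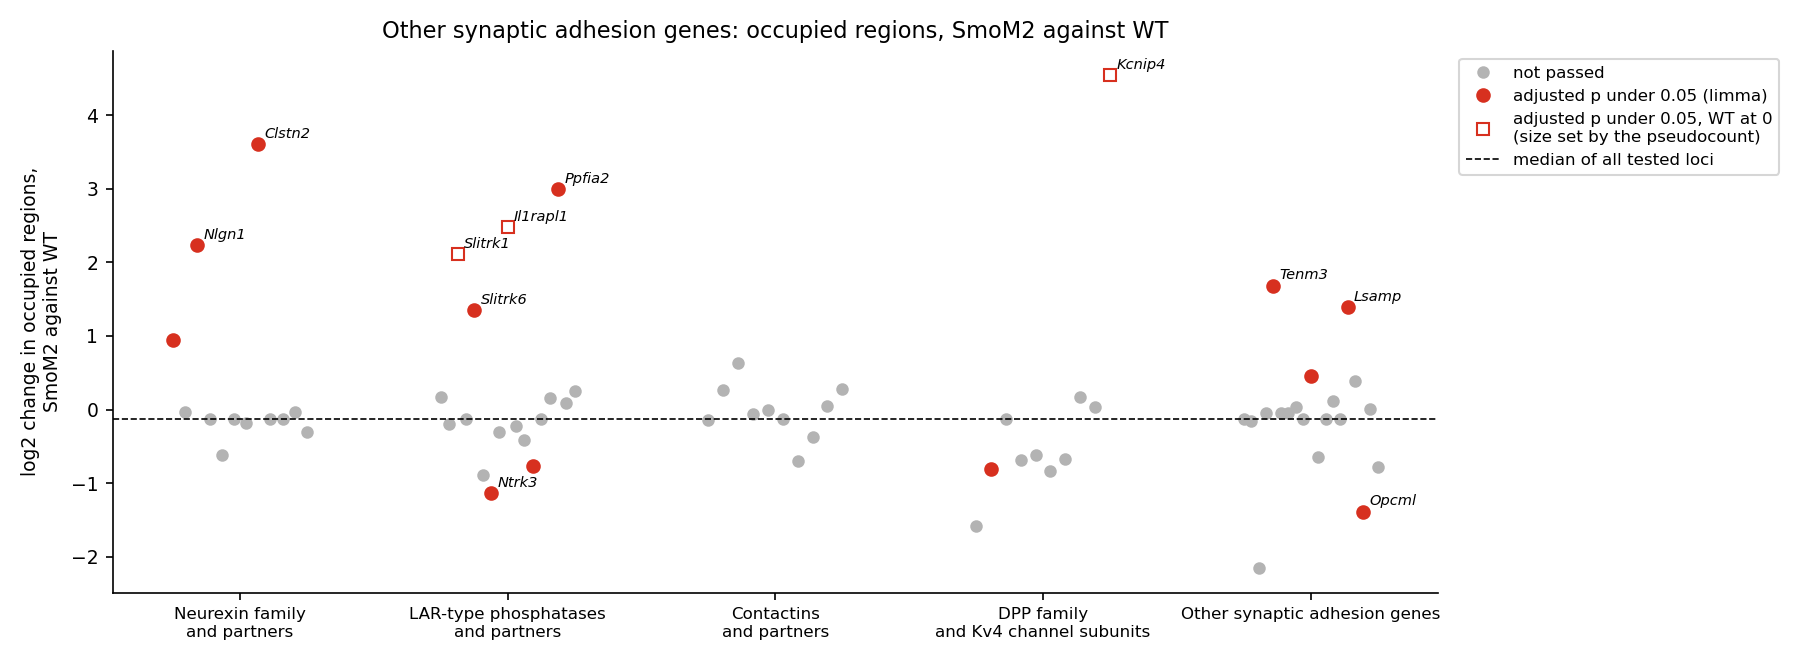
Log2 change in occupied regions, SmoM2 against WT (vertical axis), for the 68 tested genes of the 5 partner lists (horizontal axis). Filled red points and open squares passed an adjusted p of 0.05, the squares being genes at 0 in all 3 WT libraries whose size is set by the pseudocount, and the dashed line is the median of all loci at -0.12. Names are given for passing genes with an absolute log2 change of at least 1.

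Among 12 tested neurexin-family genes and partners, 3 were higher in SmoM2 and none lower (1 at an unadjusted p under 0.05). Clstn2, a calsyntenin of the postsynaptic membrane, had 32, 21 and 31 regions in SmoM2 against 2, 2 and 1 in WT (log2 change 3.61, SE 0.25, limma adjusted p = 7.7e-05). Nlgn1, a neuroligin and thus a postsynaptic neurexin receptor, had 4, 2 and 4 against 0, 0 and 1 (log2 change 2.24, limma adjusted p = 0.0399), a call lost in 10 of 20 alternatives (adjusted p 0.0156 to 0.195), among them leaving out any SmoM2 library, WT replicate 1 or 2, or SmoM2-Sox9cKO replicate 1.

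Among 17 tested LAR-type phosphatases and partners, 4 were higher and 2 lower. The adaptor gene Ppfia2 (liprin-alpha) had 8, 6 and 7 regions in SmoM2 against 0, 2 and 0 in WT (log2 change 3.00, limma adjusted p = 0.012). Il1rapl1, a binding partner of Ptprd, had 4, 2 and 2 in SmoM2, while WT was listed at 0 (limma adjusted p = 0.0028). Slitrk6, of a family of Ptprd ligands, had 9, 8 and 10 against 2, 3 and 4 (log2 change 1.35, limma adjusted p = 0.012), but 0.37 with a limma adjusted p of 0.295 when only regions in the gene body were counted. Slitrk1 had 3, 1 and 2 in SmoM2, while WT was listed at 0 (limma adjusted p = 0.0448), a call lost in 12 of 17 alternatives (adjusted p 0.00314 to 0.141), among them leaving out SmoM2 replicate 2 or 3, SmoM2-Sox9cKO replicate 3 or any WT library. The other calls were lower in SmoM2 and are named to complete the count after their values were seen: Ntrk3, the TrkC receptor, with 6, 6 and 7 against 15, 12 and 13, and Lrfn3 with 3, 4 and 4 against 6, 7 and 5.

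None of 10 tested contactins and partners passed by limma in SmoM2 against WT, with 2 higher and 1 lower at an unadjusted p under 0.05. Of 10 tested genes of the DPP family and Kv4 channels, 1 was higher and 1 lower. Kcnip4, a Kv4 channel-interacting protein, had 20, 10 and 9 regions in SmoM2, while WT was listed at 0 (limma adjusted p = 0.00929). Dpp4, a true peptidase related to Dpp10, had 5, 5 and 5 against 8, 9 and 8 (log2 change -0.81, limma adjusted p = 0.00224). Of 19 other synaptic adhesion genes, 3 were higher and 1 lower. Tenm3, a teneurin, had 21, 22 and 14 against 3, 5 and 8 (log2 change 1.68, limma adjusted p = 0.00704), and Lsamp, an IgLON protein, had 6, 3 and 3 against 1, 1 and 1 (log2 change 1.40, limma adjusted p = 0.0147; 0.00751 to 0.339 over its alternatives, the highest with stricter intervals). Cadm1, an adhesion protein also found in epithelia, had 29, 24 and 30 against 17, 19 and 19 (log2 change 0.45, limma adjusted p = 0.00638; 0.0014 to 0.156 over its alternatives, the highest with stricter intervals). Opcml, another IgLON gene, had 6, 3 and 6 against 13, 14 and 10 (log2 change -1.39, limma adjusted p = 0.021), a call lost in 7 of 22 alternatives (adjusted p 0.00572 to 0.141), among them leaving out SmoM2 replicate 2 or WT replicate 1 or 2.

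SmoM2-Sox9cKO was compared with SmoM2, from which it differed by the floxed Sox9 alleles and possibly by strain, which is not given for it. Intervals at Y-linked genes numbered 0 in SmoM2-Sox9cKO replicate 3, against 9, 9 and 9 in SmoM2. Any difference in how or when the libraries of these groups were made cannot be told apart from genotype. Of the 68 list genes 1 was higher and 0 lower by limma (5 and 12 at an unadjusted p under 0.05), against 0.423% and 0.43% of all loci. Those shares rest on 65 and 66 loci, which became 8 to 107 and 20 to 71 with a library left out (lowest without SmoM2-Sox9cKO replicate 3, and 107 without SmoM2 replicate 3). Ntrk3 had 11, 9 and 11 regions in SmoM2-Sox9cKO against 6, 6 and 7 in SmoM2 (log2 change 0.72, limma adjusted p = 0.0489), a call lost in 16 of 22 alternatives (adjusted p 0.00225 to 0.269), among them leaving out any SmoM2-Sox9cKO or SmoM2 library, or WT replicate 2 or 3. For SmoM2-Sox9cKO against WT, 4 were higher and 3 lower, against 3.99% and 3.42% of all loci. Clstn2 had 17, 20 and 12 against 2, 2 and 1 (log2 change 2.91, limma adjusted p = 0.000324). Tenm3 had 18, 17 and 15 against 3, 5 and 8 (log2 change 1.58, limma adjusted p = 0.0103), and Il1rapl1 had 1, 3 and 1 in SmoM2-Sox9cKO, while WT was listed at 0 (limma adjusted p = 0.0114). Ptprz1, a receptor phosphatase that binds contactins, had 15, 16 and 12 against 9, 11 and 10 (log2 change 0.43, limma adjusted p = 0.0296), a call lost in 12 of 22 alternatives (adjusted p 0.0167 to 0.222), among them leaving out SmoM2-Sox9cKO replicate 1 or 2 or any WT library. Opcml had 5, 2 and 2 against 13, 14 and 10 (log2 change -2.03, limma adjusted p = 0.0052), and Dpp4 had 6, 5 and 6 against 8, 9 and 8 (log2 change -0.58, limma adjusted p = 0.0125). Adgrl2, a latrophilin, had 30, 28 and 25 against 29, 37 and 35 (log2 change -0.34, limma adjusted p = 0.027), where the groups overlapped, a call lost in 11 of 22 alternatives (adjusted p 0.00643 to 0.266), among them leaving out any SmoM2-Sox9cKO library or WT replicate 2 or 3.

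The lists held 74536 to 83110 intervals in SmoM2-Sox9cKO, 76827 to 87910 in SmoM2, 69026 to 78490 in WT, and 14255 and 24902 in Embryo, and the read depth behind them is unknown. At Sox9 the libraries held 10, 12 and 9 regions in SmoM2-Sox9cKO, 9, 10 and 11 in SmoM2 and 11, 7 and 9 in WT, and since the deleted part is not given in the labels this checks nothing about the deletion. Summed over 10 basal keratinocyte markers, occupied regions ranged over 105 to 110 in SmoM2-Sox9cKO, 94 to 118 in SmoM2, 89 to 98 in WT and 13 to 21 in Embryo, with Krt5 and Dsg3 at 0 in Embryo and no marker at 0 elsewhere. Summed over 12 neuron markers they ranged over 67 to 77, 59 to 72, 45 to 58 and 2 to 21 in the same groups, with Elavl4 at 0 in SmoM2-Sox9cKO and Elavl3, Stmn2 and Prph among those at 0 in Embryo. Of 11 neuron markers tested, 3 were higher in SmoM2 than in WT, where 5.2% of all loci were, and 3 in SmoM2-Sox9cKO than in WT, where 3.99% were, and none was lower. Sums over 7 glia markers ranged over 11 to 15, 11 to 13, 11 to 13 and 4 to 6, with S100b among those at 0 in SmoM2-Sox9cKO and in SmoM2. The part of neuronal cells or of the sorting gate in the differences at the synaptic loci was not tested.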

How the data were processed

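Mouse esophageal cells were profiled by ATAC-seq with Illumina transposase and paired-end sequencing on a NovaSeq, per the labels' protocols. Trimmomatic, Bowtie2, Picard, MACS2 and deepTools and the builds GRCm38 and mm10 are named in the submitters' processing notes, whose versions and settings were not given in the sources used here. Each of the 11 libraries has its own list of intervals, so replicates were not pooled. The authors deposited in each list a score, a fold enrichment, a −log10 p-value, a −log10 q-value and a summit position, all in the narrowPeak layout of MACS2. Of these, p was used to rank intervals within a list and q for the stricter alternative. No reads were counted and no shift of insertion sites was examined here.

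Repeated intervals were collapsed, chromosomes 1 to 19 and X were kept, and all intervals overlapping by at least 1 bp were merged into 124941 regions (median width 693 bp). The midpoint of 111956 regions lay within 100 kb of 1 of 21631 protein-coding gene bodies (GRCm38.p6, RefSeq), the shorter body winning ties. Coordinates are 1-based in GRCm38. Loci averaging 1 or more occupied regions over the 9 non-embryonic libraries (15365, all 5 genes included) were tested with limma 3.58.1 in R 4.3.3, with trend on and robust off. The scale was log2((occupied regions + 0.5)/(total occupied regions + 1) × 100000), the 3 groups shared one fit, and Benjamini-Hochberg adjustment at 0.05 ran over all loci within a comparison. A change on this scale understates that of loci with few regions, and counts regions, not their signal. Tables were joined with Python 3.11.15 and pandas 2.3.3, and the steps were tested on simulated data.

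The 5 genes, the lists and the motifs were chosen with earlier results of these data known. Named in the text were up to 4 genes per list and comparison that passed the test, largest absolute log2 change first. For each locus were named up to 2 gained regions with the best median rank, regions within 1 kb of a gene end, and up to 2 regions occupied in WT or Embryo. For each locus the 3 most similar loci were named too. A few items selected in these ways are left out of the text. Other regions and genes named complete a count or description, picked after seeing their values. No log2 change is given where a group was at 0 in all libraries. Alternatives covered the intervals kept, overlap, locus, scaling, pseudocount, filter, samples, a replicate block and each library left out. Same-numbered replicates deviated together with correlations of -0.067 to 0.08 only, so the numbers do not pair the samples.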

Additional observations from a re-analysis of the deposited data

Results flagged for a closer look

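Intervals at 4 Y-linked genes (Kdm5d, Eif2s3y, Uty and Ddx3y), outside the chromosomes analysed, stood above the highest WT library in 5 libraries. SmoM2-Sox9cKO replicates 1 and 2 had 8 and 10 of them, and SmoM2 replicates 1, 2 and 3 had 9, 9 and 9. SmoM2-Sox9cKO replicate 3 had 0, the WT libraries had 5, 0 and 0, and both Embryo libraries had 0. The labels do not give sex. SmoM2-Sox9cKO replicate 3, with 0 such intervals, held 19 regions at Ptprd, 18 at Nrxn3, 0 at Nxph1, 4 at Cntn6 and 4 at Dpp10. WT replicate 1, with 5 of them, held 1, 7, 0, 4 and 1 in the same order. All 3 SmoM2 libraries had more such intervals than any WT library, and the part of sex in the values at these loci was not tested. No group of 4 to 10 libraries was available for a check of single outlying samples.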

How the results depend on the processing

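The number of gained regions at the 5 loci stayed within 1.5 times of 44 in all 12 alternatives run (31 to 56). Lost regions numbered 1 in place of 3 with stricter intervals (−log10 q of at least 5), with gene bodies only and with a 20 kb flank. List genes higher in SmoM2 than in WT numbered 6 with stricter intervals, 7 with a mean of at least 3 regions and 6 with Y-linked intervals as a term, which was added after seeing the data, against 11. Those lower numbered 2 without scaling, 10 with covered base pairs, and 7 each with a pseudocount of 1 and a mean of at least 3 regions, against 4, and 3 to 7 with a library left out (7 without SmoM2-Sox9cKO replicate 2). For SmoM2-Sox9cKO against SmoM2, the 1 gene higher became 0 with stricter intervals, 50% of the region covered, a 20 kb flank, no scaling and the Y-linked term, and 0 to 1 with a library left out. The 0 lower became 2 with lists of equal length, and 0 to 2 with a library left out. For SmoM2-Sox9cKO against WT, 2 in place of 4 were higher in a fit of only the 6 libraries compared, and 6 in place of 3 lower with covered base pairs. Under the replicate block 10 were higher and 5 lower in SmoM2 against WT, 0 and 0 in SmoM2-Sox9cKO against SmoM2, and 4 and 3 in SmoM2-Sox9cKO against WT. Over all loci, the 884 lower in SmoM2 than in WT became 537 to 844 with a library left out (lowest without WT replicate 3), and the 525 lower in SmoM2-Sox9cKO than in WT became 337 to 523 (lowest without SmoM2-Sox9cKO replicate 2). The cause of these shifts was not tested.

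The log2 change of Cntn6 ranged from -2.99 to -0.65 for SmoM2 against WT and from -0.24 to 1.53, on both sides of 0, for SmoM2-Sox9cKO against WT, where the value was 0.12 and its sign is not settled. That of Ptprd ranged from 3.26 to 4.31, of Nrxn3 from 1.47 to 2.04, of Nxph1 from 2.06 to 3.32 and of Dpp10 from 1.98 to 3.15 for SmoM2 against WT. Depth is unknown, 2 or 3 libraries stand for a group, and presence of an interval says nothing of signal below the caller's threshold.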

Other observations

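Markers of further cell types were counted by limma with an adjusted p under 0.05. Over all loci 5.2% were higher and 5.75% lower in SmoM2 than in WT, and 3.99% higher and 3.42% lower in SmoM2-Sox9cKO than in WT, and the marker lists are too short for a share to be read closely. Of 6 endothelial markers tested, 3 were higher and 1 was lower in SmoM2 than in WT, and 4 were higher in SmoM2-Sox9cKO than in WT. Their summed regions ranged over 51 to 55 in SmoM2-Sox9cKO, 46 to 52 in SmoM2, 39 to 46 in WT and 0 to 10 in Embryo. Of 4 smooth muscle markers tested, 1 was lower in SmoM2 and 2 in SmoM2-Sox9cKO than in WT, with sums of 7 to 10, 8 to 11 and 11 to 14 in the same order and 0 in both Embryo libraries. Of 4 fibroblast markers tested, 1 was higher in each (sums 21 to 23, 19 to 20, 13 to 15 and 3 to 6). Of 4 immune markers tested, 1 was higher in SmoM2 than in WT and 0 in SmoM2-Sox9cKO than in WT, with 1 at an unadjusted limma p under 0.05 (sums 8 to 12, 10 to 14, 6 to 10, and 1 in each Embryo library). Of 3 neuroendocrine and 5 glia markers tested none passed by limma against WT, with none at an unadjusted p under 0.05 either (neuroendocrine sums 11 to 14, 10 to 11, 9 to 13 and 1 to 6). Of 10 basal keratinocyte markers none passed, with 0 higher and 2 lower at an unadjusted limma p under 0.05 in SmoM2 against WT. Their part in the values at the synaptic loci was not tested.

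Inside Dpp10, upstream of the printed start and 1271.6 kb from the lower gene end, lay chr1:124602912-124604642. It was occupied in 2 of 3 SmoM2-Sox9cKO libraries and in no library of another group, and was picked after its values were seen.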
